A study of Mus musculus with 2 samples.

Results

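The 10 genes followed here were Spp1, Sprr1a, Vim, Krt7, Krt8, Krt18, Krt19, Krt23, Sox9 and Cd24a, known as markers of bile duct epithelium or of hepatocytes that lose their adult state in culture. They were selected by gene symbol from the 36808 genes of the deposited table, and all 10 were found, each in a single row. The list was chosen with earlier results of these data in view, the high values of Spp1, Sprr1a and Vim among them, so the levels below are a description and carry no test. The cells were hepatocytes, the parenchymal cells of the liver, isolated from C57Bl6 mice and kept in William E medium with serum, insulin and dexamethasone. The culture given GW3965, an agonist of the liver X receptors (LXR), received it at 1 µM. The other culture received DMSO, the solvent. Each group had 1 RNA sequencing library, so there is no spread between cultures to set a difference against, and no SD. The deposited table calls its second library GL, and GL was taken to be GW3965, the only sample that the labels hold beside DMSO. This reading is not certain, and every direction below rests on it. Depth, estimated from the steps between low values, was about 74100000 fragments with GW3965 and 59600000 with DMSO.

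Adult hepatocytes build their keratin filaments from a single pair, keratin 8 and keratin 18, whereas bile duct cells add keratin 7 and keratin 19 to it. Sox9 encodes a transcription factor of ducts and of hepatocyte progenitors, and Spp1 encodes osteopontin, a secreted ligand of integrins and CD44 made by bile duct cells and by activated macrophages. When hepatocytes are plated they flatten, lay down actin and intermediate filaments and lose much of their metabolic expression, a process called dedifferentiation. Vimentin, the mesenchymal intermediate filament protein encoded by Vim, is a common sign of it.

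The start regions of the 4 genes with the highest levels, and of Krt7, the gene with the lowest, are shown to let their sequences be compared with their levels. Each runs from 250 bases before to 50 bases after the RefSeq start on the gene's own strand, on GRCm38.p6, a later build than the mm9 of the table. Capitals mark 3 motifs on either strand: TGAGTCA, bound by AP-1, TATAAA, the TATA element, and AGGTCA, the half-site of many nuclear receptors.
Sprr1a, chr3:92485832-92486131, minus strand: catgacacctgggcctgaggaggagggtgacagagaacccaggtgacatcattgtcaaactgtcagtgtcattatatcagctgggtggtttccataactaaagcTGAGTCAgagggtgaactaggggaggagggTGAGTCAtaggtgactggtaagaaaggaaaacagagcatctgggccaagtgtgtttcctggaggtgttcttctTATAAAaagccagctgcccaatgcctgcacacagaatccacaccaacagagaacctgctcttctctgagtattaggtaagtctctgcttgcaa
Spp1, chr5:104434861-104435160, plus strand: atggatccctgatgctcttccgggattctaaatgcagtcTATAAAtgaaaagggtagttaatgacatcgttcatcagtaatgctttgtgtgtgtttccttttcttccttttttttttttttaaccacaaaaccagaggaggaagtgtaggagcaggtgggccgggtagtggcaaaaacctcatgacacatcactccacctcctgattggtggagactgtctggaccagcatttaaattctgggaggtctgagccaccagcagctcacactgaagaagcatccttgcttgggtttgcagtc
Krt8, chr15:102004293-102004592, minus strand: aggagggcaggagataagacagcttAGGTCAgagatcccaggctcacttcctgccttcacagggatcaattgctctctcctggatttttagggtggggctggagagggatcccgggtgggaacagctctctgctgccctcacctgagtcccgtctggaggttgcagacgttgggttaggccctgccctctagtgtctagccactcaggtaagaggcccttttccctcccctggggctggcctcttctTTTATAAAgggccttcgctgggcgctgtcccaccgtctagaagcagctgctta
Krt18, chr15:102027966-102028265, plus strand: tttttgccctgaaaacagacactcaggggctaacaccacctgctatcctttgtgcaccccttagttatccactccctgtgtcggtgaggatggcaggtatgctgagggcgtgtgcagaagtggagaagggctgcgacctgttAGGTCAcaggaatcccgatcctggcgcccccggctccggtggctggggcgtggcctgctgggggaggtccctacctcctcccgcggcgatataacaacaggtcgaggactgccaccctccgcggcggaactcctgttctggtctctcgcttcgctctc
Krt7, chr15:101412153-101412452, plus strand: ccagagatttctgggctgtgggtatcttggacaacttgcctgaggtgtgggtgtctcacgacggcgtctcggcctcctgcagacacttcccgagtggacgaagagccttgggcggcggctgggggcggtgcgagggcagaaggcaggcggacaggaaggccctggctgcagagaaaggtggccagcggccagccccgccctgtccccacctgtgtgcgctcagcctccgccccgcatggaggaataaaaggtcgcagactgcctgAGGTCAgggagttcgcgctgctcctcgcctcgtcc

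The Sprr1a region held TGAGTCA at 2 places, 146 and 116 bases before the start, and a TATA element 43 bases before it. TGAGTCA occurred in no other region of the set, and 5.2% of the 32851 RefSeq start regions of this length held it. TATAAA, present in 13.6% of all regions, was found for Sprr1a, Vim, Spp1 and Krt8. In Vim it lay 32 bases before the start, in the usual place of a TATA element, in Spp1 211 bases before it, and in Krt8 at the annotated start itself, where matches on both strands overlap. AGGTCA, in 16.3% of all regions, was found for Krt8 and Krt18 before the start and for Krt7 after it, each with 1 match. An exact direct repeat of AGGTCA spaced by 4 bases, the LXR type of element, occurred in 5 of all regions (0.0152%) and in none of these. A string this rare could hardly occur in so few regions, so its absence says nothing about LXR sites in them. Also searched were ACCACA (RUNX; 16.8% of regions; Spp1, 128 bases before the start), TGGGAA (RBPJ; 25.6%; Krt8), GGGCGG (the GC box; 35.7%; 4 matches in Krt7) and GGAATG (TEAD; 14.7%; no region of the set). Start regions were at hand for 7 of the 10 genes, with 2 for Spp1, of which the second had none of these motifs. Such matches are descriptions of the letters and not of binding.

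FPKM, the authors' unit, is the number of fragments scaled to transcript length and library size, so it can be compared between genes. At the top, Sprr1a had 4040 FPKM in the GW3965 library and 3656 in the DMSO library, and Spp1 had 3373 and 4131. At the bottom, Krt7 had 0.0775 and 0.0604. Together the 10 genes made up 2.12% of all FPKM in the GW3965 library and 2.03% in the DMSO library, of which Sprr1a and Spp1 alone gave 1.38% and 1.45%. The genes form an abundant group of 5 (Sprr1a, Spp1, Krt18, Krt8 and Vim), a middle pair (Sox9 and Krt19), and 3 genes near or below an FPKM of 1 (Cd24a, Krt23 and Krt7).

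**Figure D1:**
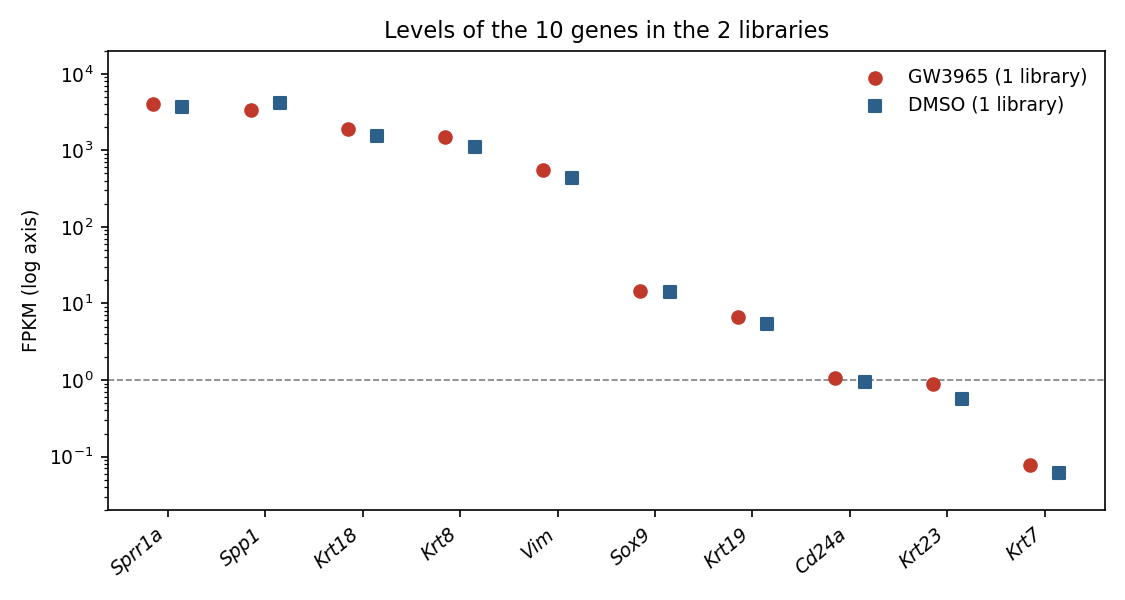
FPKM of the 10 genes on a log axis, with 1 point per library, GW3965 at the left of each pair and DMSO at the right; the dashed line marks the minimum of 1 FPKM used for counts. Sprr1a, at 4040 and 3656 FPKM, and Spp1, at 3373 and 4131, stand highest, Krt7 stands lowest at 0.0775 and 0.0604, and the 2 points of each gene lie close together compared with the distances between genes.

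Sprr1a (ENSMUSG00000050359, chromosome 3, 92287877 to 92289816, mm9) encodes a small proline-rich protein known from the cornified envelope of skin and from injured neurons. It ranked 6 among 36801 genes by FPKM in the GW3965 library and 7 in the DMSO library. All ranks leave out 7 rows whose estimate failed, of which mt-Co1 (10578 FPKM), Alb (7244) and Trf (6727) stood above Sprr1a and Spp1 in the DMSO library and were listed at 0 in the GW3965 library. By mean level its neighbours were mt-Co2, a mitochondrial subunit of cytochrome oxidase, at 4523 and 4187 FPKM in GW3965 and DMSO, and Spp1. None of its relatives was comparable. Of the 16 Sprr genes of the table Sprr1a alone reached an FPKM of 1, and 10 were listed at 0 in both libraries. Sprr1b, the closest relative by name, had 0.633 FPKM in the GW3965 library and 0.762 in the DMSO library. Of the list of other small proline-rich and cornified envelope genes, only Ivl and Tgm1 reached the minimum. Ivl, which encodes involucrin, had 24.6 and 14.2 FPKM, and Tgm1, which encodes the transglutaminase that crosslinks the envelope, had 5.64 and 7.07. No word of 25 bases of the Sprr1a transcript occurs in a transcript of another gene in GENCODE, so its reads are not easily confused with those of a relative.

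Spp1 (ENSMUSG00000029304, chromosome 5, 104864137 to 104870069, mm9) ranked 9 in the GW3965 library and 6 in the DMSO library. Below it by mean level stood Tpt1, which encodes the translationally controlled tumour protein, at 3440 and 3234 FPKM. Spp1 was lower in the GW3965 library and Sprr1a higher, so that the ratio of Sprr1a to Spp1 levels was 1.20 with GW3965 and 0.885 with DMSO, and their order was exchanged. Of its 25-base words 15.2% are shared with Gm42793, a tentative GENCODE entry that is no row of the table.

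Osteopontin receptors were measured beside their ligand. Of 13 receptor genes for osteopontin and CD24, 8 reached the minimum, and Cd44, a cell surface receptor of osteopontin and hyaluronan, had 92.9 FPKM in the GW3965 library and 57.2 in the DMSO library. Itgb1 had 285 and 232 FPKM and Itgav 87.3 and 73.9, and these 2 encode integrin subunits that bind the arginine-glycine-aspartate motif. Siglecg, a receptor of CD24 in mice, stood at 0.0573 and 0.0674 FPKM.

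Keratins 8 and 18 made up almost all keratin expression. Krt18 (ENSMUSG00000023043, chromosome 15, 101858647 to 101862457, mm9) had 1902 FPKM in the GW3965 library and 1531 in the DMSO library, ranking 30 and 38. Krt8 (ENSMUSG00000049382, chromosome 15, 101827142 to 101834773) had 1491 and 1118 FPKM, ranking 36 and 70. The neighbours of Krt18 by mean level were the ribosomal protein genes Rps18, at 1718 and 1840 FPKM, and Rps24, at 1628 and 1579. The loci lie 23873 bases apart, and their proteins polymerise with each other in equal parts. The level of Krt8 relative to Krt18 was 0.784 in the GW3965 library and 0.731 in the DMSO library. Of the 25-base words of Krt8, 34.6% also occur in its processed pseudogene Krt8-ps, and 14.6% of those of Krt18 occur in Gm5200, another processed pseudogene, and neither pseudogene is a row of the table. How reads that match both places were assigned is not stated in the labels.

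Krt7 and Krt19, the keratins that set bile duct cells apart, were far below that pair. Krt19 (ENSMUSG00000020911, chromosome 11, 100002124 to 100009979) had 6.63 FPKM in the GW3965 library and 5.34 in the DMSO library, and the level of Krt18 was 287 times that of Krt19 in each of the libraries. Krt7 (ENSMUSG00000023039, chromosome 15, 101241474 to 101260744) at 0.0775 and 0.0604 FPKM was marked by the authors' deposited table as not tested. Krt23 (ENSMUSG00000006777, chromosome 11, 99339288 to 99354451), a keratin known to be induced in injured liver, had 0.894 and 0.561 FPKM and stayed under the minimum in both libraries.

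Of the 50 keratin genes in the table, 5 reached an FPKM of 1, 15 were detected below it and 30 were listed at 0 in both libraries. Krt8 and Krt18 together held 99.6% of the summed keratin FPKM in each library. Beside Krt8, Krt18 and Krt19, the genes at the minimum were Krt20, a keratin of intestinal and urothelial surface cells, at 4.42 FPKM with GW3965 and 2.66 with DMSO, and Krt5, a basal cell keratin, at 1.23 and 0.902.

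**Figure D2:**
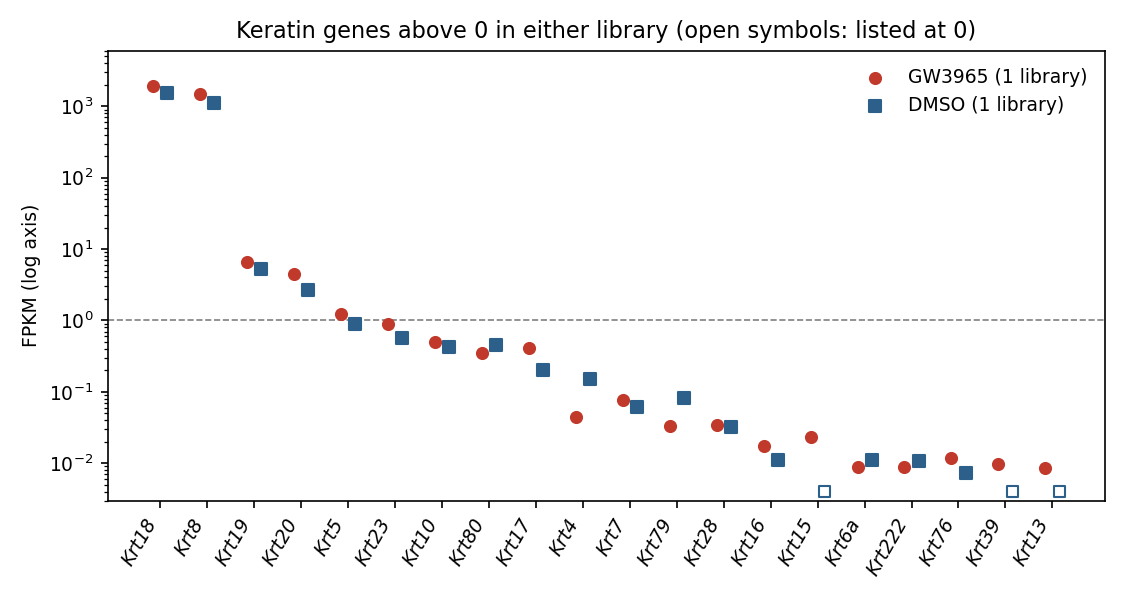
FPKM on a log axis of the 20 keratin genes above 0 in either library, GW3965 at the left of each pair and DMSO at the right; open symbols stand for a value listed at 0, and the dashed line marks 1 FPKM. Krt18 (1902 and 1531) and Krt8 (1491 and 1118) stand far above the next gene, Krt19 (6.63 and 5.34).

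Vim (ENSMUSG00000026728, chromosome 2, 13495554 to 13504453, mm9) had 547 FPKM in the GW3965 library and 432 in the DMSO library and ranked 165 and 185. All 31 genes of the list of cytoskeletal and related genes of plated cells reached the minimum. The highest were Actb, which encodes beta-actin, at 2818 and 2257 FPKM, S100a11, a calcium-binding protein gene, at 1620 and 1540, and Anxa2, which encodes annexin A2, at 1057 and 811. In the list of genes of the epithelial-mesenchymal transition, Fn1, which encodes fibronectin, had 688 FPKM with GW3965 and 514 with DMSO. Epithelial and mesenchymal cadherins were present side by side, with Cdh1 at 43.6 and 48.2 FPKM and Cdh2, which adult hepatocytes also express, at 35.9 and 32.7. The junction protein gene Tjp1 had 38.5 and 38.7 FPKM.

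Sox9 (ENSMUSG00000000567, chromosome 11, 112643524 to 112649074, mm9) had 14.7 FPKM in the GW3965 library and 14.0 in the DMSO library. It stood at a rank of 4986 and 5129. The Notch pathway acts on Sox9 in duct development, and 9 of 14 Notch genes reached the minimum. The 3 highest were Hes1, a transcriptional repressor downstream of Notch, at 18.2 and 20.7, Dll4, a Notch ligand, at 15.5 and 12.7, and Rbpj, the DNA-binding partner of Notch, at 15.2 and 12.1. All 16 table rows of the YAP and TAZ list reached the minimum. The matricellular gene Cyr61, a target of YAP, had 193 FPKM with GW3965 and 230 with DMSO. Ctgf, also matricellular and a YAP target, had 135 with GW3965 and 106 with DMSO, and Ankrd1, a muscle ankyrin repeat gene and YAP target, had 73.3 with GW3965 and 87.9 with DMSO. Cd24a (ENSMUSG00000047139, chromosome 10, 43298975 to 43304068, mm9), which encodes a small surface protein of progenitor and duct cells, had 1.07 FPKM with GW3965 and 0.945 with DMSO. It shares 6.37% of its 25-base words with the processed pseudogene Gm6212.

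Other ductal and progenitor genes differed widely in level, and the label of duct markers was only partly matched by them. Of 29 table rows for 28 genes, 17 reached the minimum. Highest were the genes of 2 claudins of tight junctions, Cldn3 at 242 FPKM with GW3965 and 213 with DMSO and Cldn4 at 222 with GW3965 and 144 with DMSO, and Anxa4, an annexin gene, at 80.0 with GW3965 and 81.6 with DMSO. Other defining markers of cholangiocytes, the cells that line bile ducts, were near or at 0, with Epcam at 0.155 FPKM with GW3965 and 0.210 with DMSO, Cftr at 0.0186 and 0.00514, and the secretin receptor gene Sctr listed at 0 in both. The high levels of Spp1 and Sprr1a thus stood beside values near or at 0 for Krt7, Epcam and Sctr.

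Hepatocyte genes were present next to them, at very different levels. Among the hepatocyte identity genes Fgb, a fibrinogen chain, had 2000 FPKM with GW3965 and 2458 with DMSO, Serpina1b, a protease inhibitor gene, 1276 and 1824, and Ahsg, which encodes fetuin-A, 831 and 1284. Other genes of adult liver were low, with the cytochrome gene Cyp2e1 at 6.90 and 6.53, the urea cycle gene Arg1 at 1.49 and 1.09, and the bile acid carrier gene Slc10a1 at 0.233 and 0.522. Alb and Trf were failed estimates in the GW3965 library and gave no comparison.

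Markers of other liver cell types were also found. Macrophages are known to express Spp1 and Vim, and endothelial and stellate cells express Vim. Of 16 macrophage genes matched, 12 reached the minimum, with summed levels of 249 FPKM with GW3965 and 250 with DMSO, led by Cd14 (99.3 and 111), Cd68 (93.9 and 74.9) and C1qb (11.1 and 12.3), while the Kupffer cell marker Clec4f had 3.11 and 2.99 and Emr1 had 1.12 and 1.34. Of 12 endothelial genes 11 reached it, with a sum of 265 and 235 FPKM, led by Eng (70.1 and 66.2), Cdh5 (65.2 and 52.9) and Pecam1 (42.6 and 35.1), for which the authors' deposited table marks its test as failed. Of 14 stellate cell and fibroblast genes 11 reached it, with a sum of 104 and 98.4. The highest were Dcn (65.6 and 64.8), Acta2 (8.20 and 6.12) and Col3a1 (7.10 and 5.79). Of defining stellate genes, Des was at 3.20 and 2.79 FPKM, Pdgfrb at 2.98 and 2.45, and Lrat at 0.228 and 0.259. None of the mesothelial (6), lymphoid and granulocyte (10) or erythroid (7) genes reached the minimum, and their highest values were Msln at 0.104 FPKM with GW3965 and 0.137 with DMSO, Cd79a at 0.147 and 0.207, and Klf1 at 0.175 and 0.161. The part of these cells in the levels of Vim and Spp1 was not tested. In bulk RNA a smaller number of cells of a type and less RNA per cell cannot be told apart.

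GW3965 was set against DMSO to ask which transcripts differ when LXR is activated. Differences are given as log2((FPKM + 1) with GW3965 over (FPKM + 1) with DMSO), a scale that understates changes of low genes, and a gene counted as different in size past 1.5-fold on it. All 6 genes of a list of LXR targets were past 1.5-fold higher with GW3965, among them the cholesterol exporter gene Abca1, at 81.1 FPKM with GW3965 and 14.6 with DMSO (2.40), and the desaturase gene Scd1, at 980 and 206 (2.25). Of the 10 genes, 8 reached an FPKM of 1 in at least 1 library, and 0 of these 8 passed 1.5-fold, against 2.35% of all 11796 genes at that minimum. Krt7 and Krt23 were under it. The member with the largest ratio was Krt8 at 0.41, and 2.24% of all genes had a higher one.

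Of these 8 genes, 7 were on the higher side. Their log2 ratios were 0.41 for Krt8, 0.34 for Vim, 0.31 for Krt18, 0.27 for Krt19, 0.14 for Sprr1a, 0.09 for Cd24a and 0.07 for Sox9, and Spp1 alone was lower, at -0.29. Their median was 0.21, and that of all genes was 0.01. A ratio above 0 was found for 7 of 8 of them and for 52.9% of all genes at the minimum. Of the 7, Cd24a reached the minimum only in the GW3965 library (1.07 FPKM against 0.945 with DMSO), which alone sets its ratio above 0. In a comparison chosen after the values were seen, 58.6% of the 812 genes with at least 100 FPKM in either library had a ratio above 0. Of these 812 genes, 26 lay above Krt8, 45 above Vim, 56 above Krt18 and 182 above Sprr1a, while 45 lay below Spp1. The filament genes Krt8, Krt18 and Vim were thus among the higher ratios of strongly expressed genes and Spp1 among the lower ones, each within 1.5-fold.

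**Figure D3:**
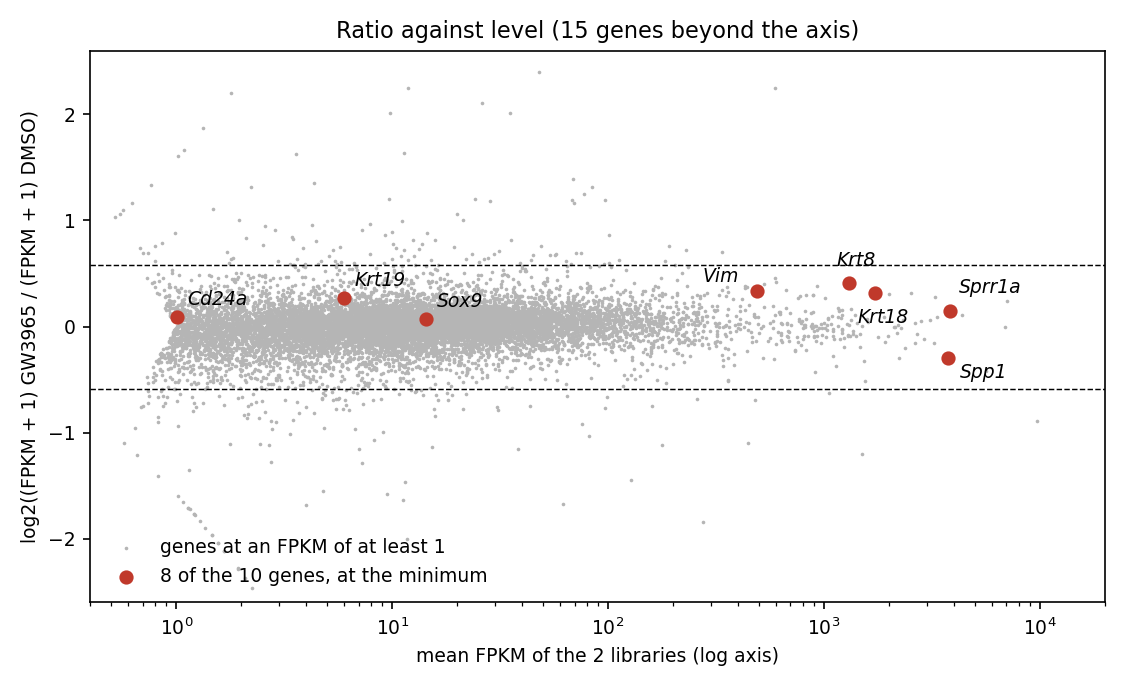
Log2 ratio of GW3965 to DMSO against the mean FPKM (log axis), with grey points for the 11796 genes at the minimum, red points for 8 of the 10 genes, and dashed lines at 1.5-fold. Krt8 (0.41), Vim (0.34) and Krt18 (0.31) lie above most genes of at least 100 FPKM and Spp1 (-0.29) below most of them. All are inside the dashed lines, and 15 genes lie beyond the vertical axis.

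Without the added 1 the ratio was larger for the scarce genes. Krt23 then had a fold of 1.59, past 1.5-fold, with an estimated 100 fragments in the GW3965 library and 52 in the DMSO library, and an exact (Clopper-Pearson) 95% interval from counting of 1.13 to 2.27. Cd24a had a fold of 1.13 (0.871 to 1.47) from an estimated 140 and 100 fragments, so that no difference was detectable at this depth. Krt19 had a fold of 1.24 (1.11 to 1.39) from about 770 and 500 fragments. Krt7 had a fold of 1.28 (0.642 to 2.65) from an estimated 24 and 15 fragments, so that no difference was detectable for it either. All these estimates take the longest coding transcript and would be lower with shorter ones, whose shortest has 642 bases against 4094 for Krt7 and 743 against 1816 for Cd24a. For Krt8 the counting interval was narrow, at 1.32 to 1.34 around a fold of 1.33. These intervals cover counting error only and leave out any difference between cultures, which 1 library per group cannot show.

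The authors' deposited table tested 9 of the 10 genes and called 0 of them, beside a call for 0.285% of the 15090 genes it tested. The p-values in the authors' deposited table ran between 0.113 for Krt23 and 0.823 for Sox9, with 0.204 for Krt8, and q was 1.00 for all 9. Since it rests on the reads of 2 libraries, it sets those libraries against each other and not the conditions.

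Related lists were set beside the 10 genes. In the list of cytoskeletal genes 21 of 31 had a ratio above 0, the median was 0.16, and 2 passed 1.5-fold, both higher: Lgals3, which encodes galectin-3, at 286 FPKM with GW3965 and 172 with DMSO (0.73), and Cd44 (0.69). All 8 receptor genes at the minimum had a ratio above 0, with a median of 0.27, and Cd44 alone of them was past 1.5-fold. With no minimum the median of the 13 receptor genes was 0.05. Epithelial-mesenchymal transition genes had a median of 0.14 and 0 of 16 past 1.5-fold, with Fn1 at 0.42. Genes of keratin partners and desmosomes, the adhesion plaques to which keratins attach, had a median of 0.03 (0.01 with no minimum) and 0 of 11 past 1.5-fold. In that list the plakoglobin gene Jup stood at 0.37, Perp, a desmosomal membrane protein gene, at -0.04 and the desmoplakin gene Dsp at 0.13.

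Other ductal and progenitor genes had a median of -0.00, with 8 above and 9 below 0, and the median was 0.06 at a minimum FPKM of 5. Cldn4 at 0.62 was past 1.5-fold higher. Onecut1, a hepatic transcription factor gene, at 0.409 FPKM with GW3965 and 1.24 with DMSO (-0.67), was past it on the lower side. Onecut1 reached the minimum only in the DMSO library, which alone sets its direction. The Notch list stood at 0.12, or 0.02 with no minimum (0 of 9 past 1.5-fold), and the YAP and TAZ list at 0.03 (0 of 16). Of the 2 cornified envelope genes at the minimum, Ivl was past 1.5-fold higher (0.75) and Tgm1 was at -0.28. Krt20 at 0.57 lay just inside 1.5-fold. All 5 keratin genes at the minimum had a ratio above 0, beside 52.9% of all genes, and Krt8, Krt18 and Krt19 among them were counted above already. Krt5 reached the minimum only in the GW3965 library (1.23 FPKM against 0.902 with DMSO), which alone sets its ratio above 0. Below the minimum keratin ratios went both ways, with Krt23 at 0.28 and Krt4 at -0.14.

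Hepatocyte identity genes had a median of 0.03, with 16 of 31 above 0 and 15 below, and one of -0.05 with no minimum. Their summed level, without 2 failed estimates, was 6651 FPKM with GW3965 and 8196 with DMSO. The 3 highest were all lower with GW3965, with Fgb at -0.30, Serpina1b at -0.51 and Ahsg at -0.63. Of these Ahsg was past 1.5-fold lower, and Cyp1a2, a cytochrome P450 gene, at 57.0 and 13.4 FPKM (2.01) was past it higher. Among the other cell types Clec4g alone was past 1.5-fold (1 of 11 endothelial genes, at -0.66). It reached the minimum only in the DMSO library, which alone sets its direction. The medians were -0.12 for macrophages (0 of 12 past 1.5-fold), 0.11 for endothelial cells and 0.15 for stellate cells and fibroblasts (0 of 11). These medians moved with the setting, to -0.05 for macrophages with a pseudocount of 5, to 0.27 for endothelial cells at a minimum of 5, and for stellate cells and fibroblasts to 0.07 with a pseudocount of 5 and 0.26 at a minimum of 5. The part of these cells in the differences of Vim (0.34) and Spp1 (-0.29) was not tested. Interferon response genes (median -0.39, 3 of 15 past 1.5-fold lower) and cell cycle genes (median -0.45, 4 of 15 lower) lay on the lower side, and both medians were -0.26 with a pseudocount of 5. Past 1.5-fold there were the interferon-induced Isg15 (-0.65), Ifi44 (-0.63) and Ifit3 (-0.74) and, of the cell cycle, Rrm2 (-0.99), Top2a (-0.82), Cdk1 (-0.69) and Birc5 (-0.69). The highest of these lists were Irf7 (-0.56) and Oasl1 (0.29), and Pcna (-0.29), Mcm6 (-0.09) and Ccnd1 (-0.45).

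**Figure D4:**
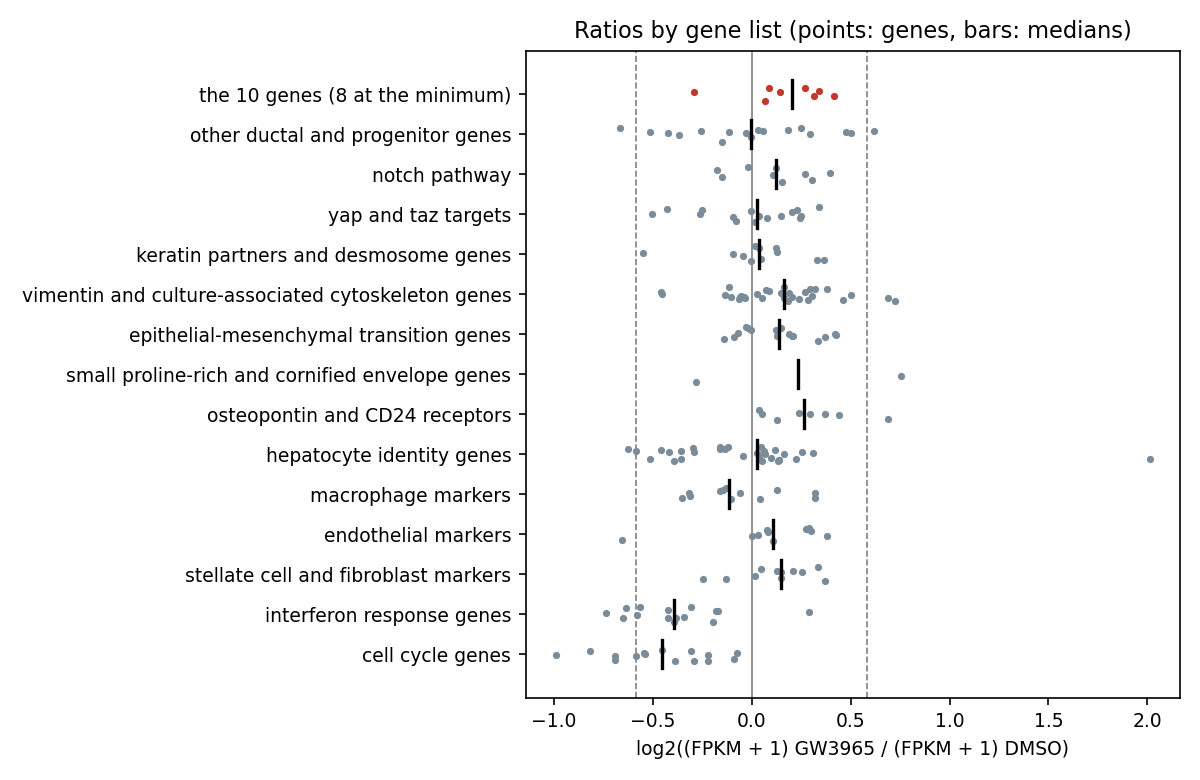
Log2 ratio of GW3965 to DMSO for each gene at the minimum FPKM, by list, with a bar at the median of each list and dashed lines at 1.5-fold. The 10 genes, in red and 8 of them at the minimum, have a median of 0.21 and none past the dashed lines; receptors (0.27, or 0.05 with no minimum) and cytoskeletal genes (0.16) lie on the same side, and the other ductal genes stand at -0.00.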

How the data were processed

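RNA was measured in 1 library of GW3965-treated and 1 of DMSO-treated hepatocytes. Per the submitters' processing notes, CASAVA, TopHat2 2.0.6, Cufflinks 2.0.2 and Cuffdiff were used with mm9 and NCBIM37. The labels do not state settings or strand use. The deposited values are FPKM, taken from the authors' Cuffdiff table as they stand, per the labels' tool names. The authors' table also holds a p-value, a q-value, a log2 fold, a signed fold and a test score per gene, per the file headers, and of these the p-value and q-value are quoted.

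The 10 genes and all lists were chosen with earlier results of these data known. Genes named are the 10, the 3 highest and every one past 1.5-fold of each list, keratins at the minimum, and neighbours in level of the 3 highest; defining markers below the minimum may be named. The hepatocyte markers Apoa1, Ttr, Serpina1a, Hnf4a, Cebpa and Cps1 are named as well. Cdh2, Krt4, Cyp2e1, Arg1, Clec4f, Emr1, Des and Pdgfrb, the motifs and the comparison with genes of at least 100 FPKM were chosen after their values were seen. Of lists wholly below the minimum 1 gene is given, and 4 LXR targets are counted only. Of 36808 genes, 7 with failed estimates (status HIDATA) were left out, and rows of every other status were kept, among them those whose test failed. Log2 ratios used a pseudocount of 1, counts a minimum FPKM of 1 in either library and a threshold of 1.5-fold. No p-value was computed, there being 1 library a group.

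Low values move in steps of whole reads, which gave a ratio of 1.24 for equal reads in both libraries and depths of about 74100000 fragments with GW3965 and 59600000 with DMSO. Of 5295 low genes, 48.3% had a ratio within 0.1% of whole-number ratios up to 10, against 2.27% after a shift of 3%. Fragment numbers of single genes were estimated from the longest coding transcript and are rough. Table starts were counted from 0 (58.5% of 19844 loci then had the GENCODE M21 length, against 1.53%), so 1 was added. GENCODE and RefSeq sequences are on GRCm38 and served only for lengths, shared words and start regions, and RefSeq is the source of the start regions. The tools were matplotlib 3.10.9, scipy 1.17.1, pandas 2.3.3 and numpy 2.4.6 under Python 3.11.15.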

Additional observations from a re-analysis of the deposited data

How the results depend on the processing

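Of the 10 genes, 0 at the minimum passed the size threshold under any of the 9 alternatives run on that count, namely pseudocounts of 0.1 and 5, no minimum, a minimum of 5, a 2-fold threshold, equal FPKM sums, centring, the genes the authors tested, and long genes (protein-coding or long noncoding, at least 300 bases; added after seeing the data). The median of the 10 genes was 0.21 in the report and 0.16 with a pseudocount of 5 and 0.27 at a minimum FPKM of 5, where Cd24a drops out. Under the other alternatives it stayed between 0.20 and 0.23. Krt23, below the minimum, passed 1.5-fold with a pseudocount of 0.1 (0.59) and without one. Ratios kept their sign for each of the 10 genes. A pseudocount cannot change a sign, so only equal FPKM sums and centring could have done so, and both shift all genes slightly. The ratio of Krt23 ranged from 0.084 with a pseudocount of 5 to 0.67 without one and that of Krt7 from 0.0049 to 0.36. Over all genes, the counts past the threshold were 120 higher and 157 lower in the report, 194 and 320 with a pseudocount of 0.1, 56 and 56 with 5, and 39 and 55 at 2-fold. Long genes gave 89 lower, and a minimum of 5 gave 82. Of genes past the threshold 43.3% were higher in the report, 51.5% at a minimum of 5 and 50.8% among long genes. Pseudocount and minimum act by construction on low genes. The median of the other ductal genes changed sign between settings (-0.017 to 0.059), as did that of the hepatocyte genes (-0.052 to 0.029). No paired analysis was possible because GW3965 and DMSO have 1 library each. Depth limits Krt7, Krt23 and Cd24a.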
